A study of Mus musculus with 6 samples.

Results

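The non-collagen proteins of bone matrix were followed here through 8 genes: the osteocalcin genes Bglap, Bglap2 and Bglap3, bone sialoprotein (Ibsp), osteopontin (Spp1), osteonectin (Sparc), Ifitm5 and Cthrc1. They were picked by symbol, and all 8 were found among the 27179 gene IDs of the count table. RNA had been sequenced from cells of the skull vault, the calvaria, of C57Bl/6J pups aged 5 days. In 3 libraries the cells came from mice labelled as a conditional knockout of Cdc73 (also Hrpt2), and in 3 from mice labelled wildtype. The protein made from Cdc73, parafibromin, belongs to the Paf1 complex, which travels with RNA polymerase II. Both genotypes were sorted in the same way for a GFP transgene that depends on Osteocalcin-Cre, a recombinase active in osteoblasts. The sort therefore rests on promoter activity of osteocalcin, so the level of Bglap and its copies is not independent of how the cells were chosen. No source used here gives the alleles of the wildtype mice or the number of animals behind a library, so every p-value measures the spread between these libraries, part of which may be technical.

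Osteoblasts lay down a collagen scaffold and fill it with a small set of acidic, mineral-binding proteins. Osteocalcin is a small secreted protein whose glutamates are carboxylated with the help of vitamin K, and it appears late as osteoblasts mature. Bone sialoprotein and osteopontin are phosphorylated glycoproteins that bind both mineral and cell-surface integrins through an RGD motif. Osteonectin binds calcium and collagen and is made by many connective-tissue cells. Ifitm5, also known as Bril, is a small membrane protein found almost entirely in osteoblasts, and Cthrc1 is a secreted protein with a short collagen-like stretch that has been tied to Wnt signalling.

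Library totals ranged from 14837272 to 16380767 counts in the knockout and from 13591925 to 20993962 in the wildtype group. Wildtype 2 and 3 had fewer genes with a count (14608 and 15712) than wildtype 1 (17947) and the knockout libraries (17068 to 18024). The deleted gene itself did not check every label: Cdc73 measured 14.0, 14.7 and 14.4 CPM (counts scaled to a common library size, with TMM factors between libraries) in knockout 1, 2 and 3, against 20.5, 12.8 and 21.7 CPM in wildtype 1, 2 and 3, so wildtype 2 lay below every knockout library. Whether the count includes exons outside the deleted part is not given, and all directions refer to the libraries as labelled. The osteoblast markers Runx2, Sp7, Alpl, Col1a1, Col1a2 and Pth1r were counted in every library. Col1a1 alone took 13.9% to 17.5% of all counts in knockout and 18.4% or more in wildtype libraries. In CPM the groups overlapped for Col1a1, and knockout 3 was the highest library at 214895.7 CPM (log2 fold change of knockout over wildtype -0.10 ± 0.25, SE). All 6 markers had a negative log2 fold change of knockout over wildtype (median -0.30). Their summed CPM, most of it Col1a1, overlapped between the groups. Markers of other cells were present too, and their levels are given beside the results they touch.

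The 3 osteocalcin genes lie side by side on the minus strand of mouse chromosome 3 (mm10), Bglap at chr3:88383495-88384466, Bglap2 at chr3:88377736-88378701 and Bglap3 at chr3:88368616-88372741. Their coding sequences are shown because they decide how well reads can be told apart. Capitals mark the 13 of 285 positions at which the 3 are not all alike, and the stop codon is left out.
Bglap: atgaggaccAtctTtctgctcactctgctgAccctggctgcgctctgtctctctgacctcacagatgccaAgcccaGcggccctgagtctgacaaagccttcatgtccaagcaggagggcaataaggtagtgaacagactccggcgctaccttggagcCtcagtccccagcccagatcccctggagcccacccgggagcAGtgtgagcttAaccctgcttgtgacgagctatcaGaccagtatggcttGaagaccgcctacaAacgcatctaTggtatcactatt
Bglap2: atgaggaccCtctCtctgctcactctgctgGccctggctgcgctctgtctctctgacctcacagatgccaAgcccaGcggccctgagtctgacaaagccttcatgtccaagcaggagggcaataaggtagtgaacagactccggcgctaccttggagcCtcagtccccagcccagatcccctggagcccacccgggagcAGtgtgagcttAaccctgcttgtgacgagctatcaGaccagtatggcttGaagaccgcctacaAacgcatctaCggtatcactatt
Bglap3: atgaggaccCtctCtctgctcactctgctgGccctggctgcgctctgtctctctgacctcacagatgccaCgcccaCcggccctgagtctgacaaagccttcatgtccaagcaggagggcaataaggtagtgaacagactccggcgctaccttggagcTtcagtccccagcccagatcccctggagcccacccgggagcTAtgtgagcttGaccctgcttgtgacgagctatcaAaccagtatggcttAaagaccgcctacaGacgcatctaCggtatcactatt
These are the coding parts of the GENCODE M21 transcripts, taken from the same build as the counts. Bglap2 differed from Bglap at 4 bases (98.6% identical), with an identical run of 241 bases. Bglap3 differed from Bglap at 13 bases (95.4% identical) and from Bglap2 at 9 (96.8% identical). Over the whole transcript, 74.7% of the 50-base windows of Bglap and 88.2% of those of Bglap2 also occur in another gene's transcript, against 24.0% for Bglap3. With 100-base windows the shares were 56.3%, 57.0% and 3.24%. No source used here gives the read length or the treatment of reads that match several genes, so the split of counts between Bglap and Bglap2 is uncertain, and their sum was tested as well. Of the other members, Ibsp, Sparc and Cthrc1 share no 50-base window with another gene, Spp1 shares 2.06% with Gm42793, and Ifitm5 shares 25.3% with Gm45717.

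Together the 8 genes took 1.98%, 1.68% and 2.22% of all counts in knockout 1, 2 and 3, against 1.95%, 1.96% and 3.19% in wildtype 1, 2 and 3. The groups overlapped, with wildtype 3 highest and knockout 2 lowest. The means were 1.96 ± 0.271% in the knockout and 2.37 ± 0.716% in the wildtype libraries (SD, n = 3 each), and the difference of -0.406 percentage points did not stand out (exact two-sided permutation test, p = 0.6, where 3 against 3 cannot go below 0.1). That difference rested on wildtype 3, and without it the value was 0.00705 percentage points. All counts include 1 unnamed feature that took 16.7% to 20.7% of knockout and 9.67% to 11.2% of wildtype counts. The members' share without that feature was not computed. Sparc alone gave 54.1% to 60.3% of the members' counts in the knockout and 55.2% to 60.5% in the wildtype libraries.

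Per kilobase of transcript the order of the members was almost the same in every library. Sparc was highest, at 5262.2 ± 1018.8 CPM per kb in the knockout and 5521.8 ± 1399.1 CPM per kb in the wildtype group, and Spp1 came next at 4232.3 ± 1527.3 in knockout and 4040.8 ± 1884.2 CPM per kb in wildtype libraries. These neighbours in the order lay within each other's spread over libraries, although Sparc was above Spp1 in all 6. Bglap came next in each library, with 1482.6 ± 702.9 CPM per kb in knockout and 1911.3 ± 1097.7 CPM per kb in wildtype cells. If reads that match several genes were dropped, Bglap and Bglap2 would be understated, so their places against the other members are uncertain. Ibsp (867.0 ± 106.4 CPM per kb in knockout and 820.4 ± 9.12 in wildtype) and Bglap2 (615.2 ± 322.9 in knockout and 831.4 ± 358.2 in wildtype) could not be ordered, and in wildtype 3 Bglap2 was above Ibsp. Cthrc1 measured 369.5 ± 55.0 CPM per kb in knockout and 428.2 ± 80.6 in wildtype libraries, and Ifitm5 166.7 ± 42.3 in knockout and 250.8 ± 75.5 in wildtype. Bglap3 was far below all others, at 1.14 ± 0.61 CPM per kb in the knockout and 6.05 ± 5.87 CPM per kb in the wildtype libraries (SD, n = 3 each throughout).

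**Figure D1:**
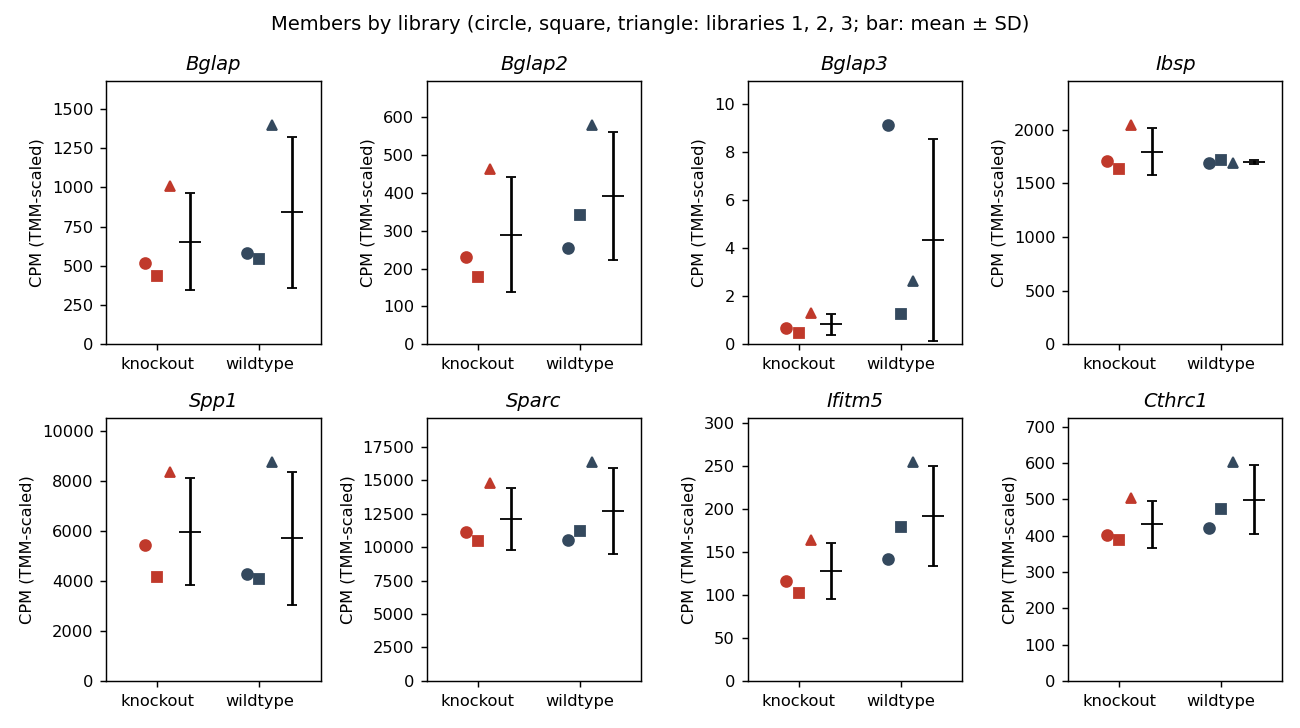
CPM of each member in each library, with knockout libraries in red and wildtype libraries in dark blue, and the mean ± SD of 3 libraries beside the points. The triangle, library 3 of its group, is the highest point of its group for Bglap, Bglap2, Spp1, Sparc, Ifitm5 and Cthrc1, while the 3 wildtype points of Ibsp lie between 1685.4 and 1718.4 CPM.

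No member passed the test between the genotypes. With edgeR's quasi-likelihood test and Benjamini-Hochberg adjustment at 0.05, 0 of 8 members were called, in a comparison in which 0 of 13505 genes were called (0.0%). At an unadjusted p under 0.05 there were 2 of 8, Bglap3 and Ifitm5, both with lower means in the knockout libraries, where 14.6% of all genes tested were under that p, 6.35% on the lower and 8.26% on the higher side. DESeq2 called 1 member, Bglap3, with 1.84% of all genes called, and limma voom called 0. Without wildtype 1 edgeR called 0 members and 2.96% of all genes, and with the replicate number as a block 0 members and 1.75%. All 8 members passed the filter on low counts, 6 with a negative log2 fold change of knockout over wildtype and 2 with a positive one. Their median was -0.29, beside -0.01 over all genes and -0.30 over the 6 osteoblast markers named above, whose part in the members' values was not tested. The 3 osteocalcin genes, all negative, enter this count and median singly although their reads are hard to tell apart. Their sum was at -0.39, and the median with the sum in their place was not computed, so likeness to another median should not be read from -0.29. In none of the 8 did the CPM of the groups separate fully, whereas the groups separated for 9.81% of all genes with the knockout lower and for 10.6% with it higher. That depends on the TMM factors. As shares of all counts, Ibsp, Ifitm5, Cthrc1 and Bglap3 were lower in every knockout library. With library size alone the median log2 fold change of all genes was -0.21, and the share of all genes that separate on that scale was not computed.

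Bglap, the main osteocalcin gene, measured 518.3, 432.7 and 1006.0 CPM in knockout 1, 2 and 3 and 582.1, 542.6 and 1398.2 CPM in wildtype 1, 2 and 3. Library 3 was the highest of its group on both sides, and knockout 3 lay above wildtype 1 and 2. The log2 fold change was -0.37 ± 0.42 (SE), with an adjusted p = 0.657 in edgeR. Bglap2, its near-identical neighbour, measured 229.9, 176.7 and 462.7 CPM in the knockout and 253.2, 342.1 and 579.5 CPM in the wildtype libraries. Here too the groups overlapped (-0.43 ± 0.39, adjusted p = 0.573). Summing all 3 genes removes the uncertainty of the split, though not any loss of shared reads. The sum stood at 748.9, 609.8 and 1470.0 CPM in the knockout, against 844.4, 886.0 and 1980.3 CPM in the wildtype libraries. Its log2 fold change of -0.39 ± 0.40 (edgeR adjusted p = 0.624) hung on single libraries, at -0.88 without knockout 3 and 0.12 without wildtype 3.

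Bglap3, the third copy, was rare in all libraries but one. Its counts were 11, 7 and 16 for knockout 1, 2 and 3, against 209, 18 and 44 for wildtype 1, 2 and 3, which is 0.66, 0.486 and 1.32 CPM in knockout and 9.14, 1.25 and 2.63 CPM in wildtype libraries. Wildtype 1 stood apart, 7.3 and 3.48 times above wildtype 2 and 3 and 13.8, 18.8 and 6.94 times above knockout 1, 2 and 3, and knockout 3 lay above wildtype 2. The log2 fold change was -2.43 ± 0.73 (adjusted p = 0.277 in edgeR), and -1.27 without wildtype 1. DESeq2 gave -2.41 with an adjusted p = 0.0462.

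As a share of the cluster, Bglap3 made up 0.0881% (95% exact binomial interval 0.044 to 0.158%), 0.0798% (0.0321 to 0.164%) and 0.0895% (0.0512 to 0.145%) of osteocalcin counts in knockout 1, 2 and 3. The wildtype shares were 1.08% (0.941 to 1.24%), 0.141% (0.0838 to 0.223%) and 0.133% (0.0964 to 0.178%). Every knockout share was under every wildtype share (exact two-sided permutation test, p = 0.1, the smallest that 3 against 3 allows), yet the intervals of the knockout libraries overlapped those of wildtype 2 and 3. Intervals cover counting error only. Bglap held 69.2%, 71.0% and 68.4% of the cluster in the knockout and 68.9%, 61.2% and 70.6% in the wildtype libraries. The low value belongs to wildtype 2, where Bglap2 took 38.6% (37.8 to 39.5%), against 29.0% to 31.5% in the knockout and 29.3% to 30.0% in the remaining wildtype libraries.

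Bone sialoprotein had the smallest span of the 8 members, its highest library being 1.25 times its lowest. Ibsp (chr5:104299287-104311472) measured 1706.7, 1629.2 and 2042.9 CPM in knockout 1, 2 and 3 and 1686.0, 1718.4 and 1685.4 CPM in wildtype 1, 2 and 3. The highest wildtype library was 1.02 times the lowest, where Bglap spanned 2.58 times and Spp1 2.16 times. The fold change of 0.08 ± 0.18 on the log2 scale had an adjusted p = 0.838 in edgeR. Its sign depended on the scaling. As a share of all counts Ibsp took 0.174%, 0.158% and 0.166% in the knockout, all under the 0.184%, 0.182% and 0.181% of the wildtype libraries, and with library size alone the value was -0.14. Between these scalings the median of all genes moved to -0.21. The unnamed feature given above took 16.7%, 20.6% and 20.7% of knockout counts against 11.2%, 9.67% and 10.4% of wildtype counts.

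Osteopontin was highest in library 3 of each group. Spp1 (chr5:104435111-104441053) measured 5420.5, 4140.3 and 8341.7 CPM in knockout 1, 2 and 3 and 4268.3, 4061.4 and 8763.0 CPM in wildtype 1, 2 and 3. The means were 5967.5 ± 2153.5 CPM in knockout and 5697.6 ± 2656.8 CPM in wildtype libraries (SD, n = 3 each), a difference smaller than either spread, with a log2 fold change of 0.07 ± 0.35 (adjusted p = 0.938 in edgeR). Without wildtype 3 it was 0.51, and without knockout 3 it was -0.27. With library size alone it was -0.17, where the median of all genes was -0.21.

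Osteonectin, the most abundant member, was also highest in library 3 of each group, with a smaller span. Sparc (chr11:55394159-55420080) measured 11100.9, 10427.6 and 14780.8 CPM in the knockout and 10513.1, 11192.3 and 16395.3 CPM in the wildtype libraries. Ranked by counts among all IDs, Sparc stood at place 7 in each knockout library and at places 6, 5 and 4 in wildtype 1, 2 and 3. Its log2 fold change was -0.07 ± 0.25 (adjusted p = 0.905 in edgeR), moving between -0.26 without knockout 3 and 0.15 without wildtype 3.

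Ifitm5 (chr7:140948958-140950243) measured 115.9, 102.6 and 164.1 CPM in knockout 1, 2 and 3 and 141.7, 178.8 and 255.0 CPM in wildtype 1, 2 and 3. Only knockout 3 and wildtype 1 crossed. The log2 fold change was -0.59 ± 0.25, with an unadjusted p = 0.0439 and an adjusted p = 0.332 in edgeR. It was negative with each library left out, from -0.83 to -0.34. With library size alone it was -0.82, a scaling under which the median of all genes was -0.21. Cthrc1 (chr15:39076932-39087121) measured 400.4, 387.6 and 504.5 CPM in the knockout and 421.5, 472.8 and 603.7 CPM in the wildtype libraries, again with library 3 highest on both sides (-0.21 ± 0.20, adjusted p = 0.591 in edgeR).

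**Figure D2:**
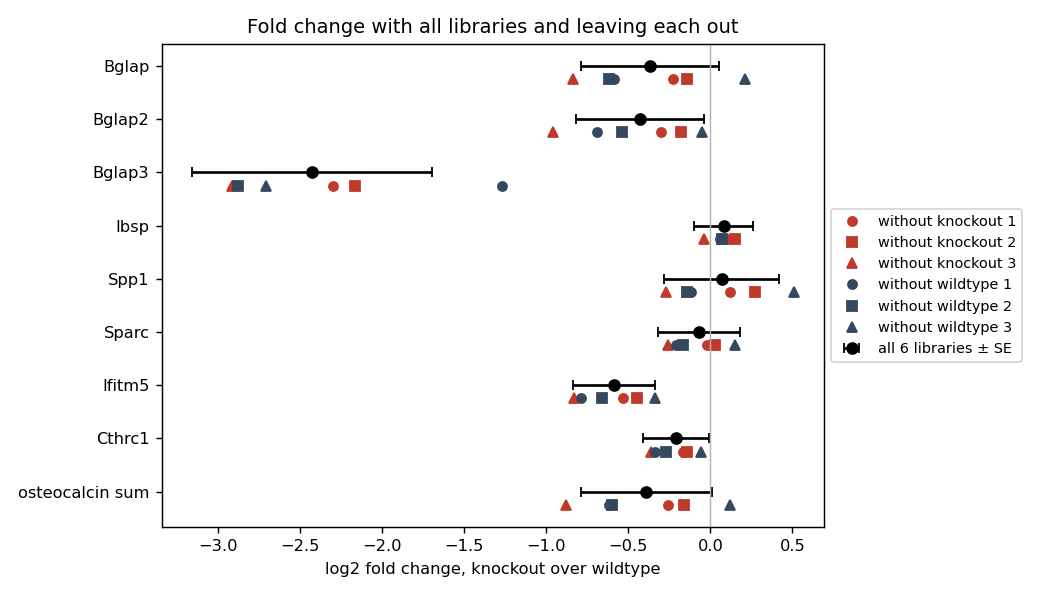
Log2 fold change of knockout over wildtype for each member and for the 3 osteocalcin genes summed. Black points with bars show the value ± SE with all 6 libraries, and coloured symbols the value with 1 library left out. Values for Bglap and the sum cross 0 when wildtype 3 is left out (0.21 and 0.12), those of Ifitm5 stay between -0.83 and -0.34, and Bglap3 moves to -1.27 without wildtype 1.

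Across the 6 libraries, knockout 3 and wildtype 3 held more of these transcripts than the others of their group. Relative to its own mean over 6 libraries, log2 CPM of summed osteocalcin was 0.56 in knockout 3 and 0.99 in wildtype 3, and between -0.71 and -0.17 in the other 4 libraries. Spp1 stood at 0.59 and 0.67 in the same libraries, Sparc at 0.28 and 0.43, Ifitm5 at 0.11 and 0.74, and Cthrc1 at 0.13 and 0.39. Ibsp had 0.23 in knockout 3 and -0.05 in wildtype 3. The TMM factor of knockout 3 was the lowest (0.813, against 0.971 to 1.09 in the others), which raises CPM there relative to a share of counts.

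**Figure D3:**
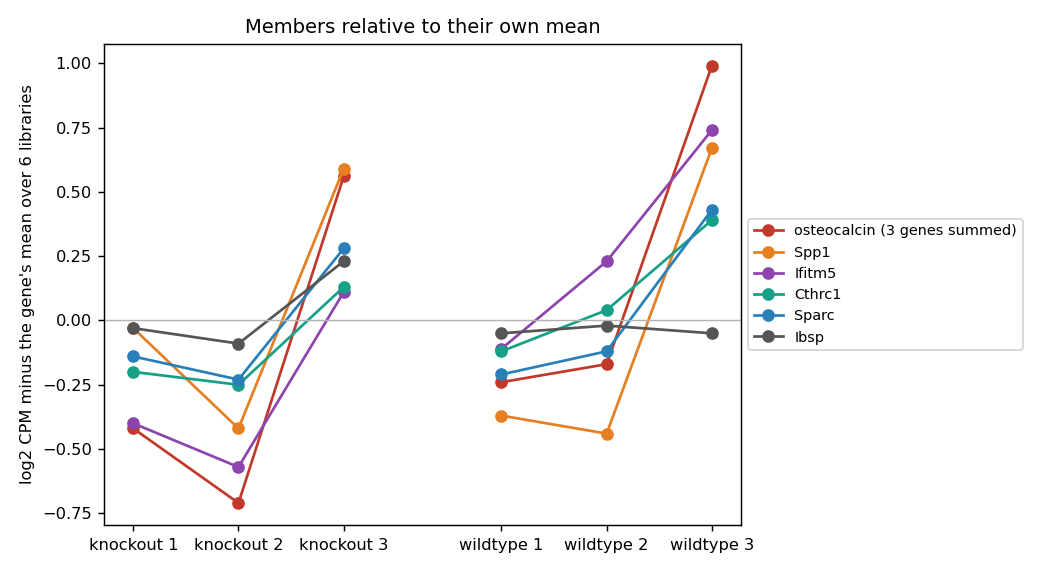
Log2 CPM of each member minus its own mean over the 6 libraries, with knockout libraries at the left and wildtype libraries at the right. The lines for osteocalcin, Spp1, Sparc, Ifitm5 and Cthrc1 peak at library 3 of each group, and Ibsp stays between -0.09 and 0.23.

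Likeness of profile was measured as the root mean square difference of these log2 deviations over the 6 libraries, which share depth and composition. Among 5005 named genes averaging 20 CPM or more, those nearest to summed osteocalcin were Enpp6 (0.15), a choline phosphodiesterase, Omd (0.19), which encodes osteomodulin, a small proteoglycan of mineralized tissue, Cgref1 (0.20), the atypical chemokine receptor Ackr4 (0.21) and the adaptor subunit Ap3m1 (0.23), where the median gene was at 0.61. Enpp6 measured 25.8 ± 9.32 CPM in knockout and 35.5 ± 15.2 CPM in wildtype libraries, and Omd 196.3 ± 108.4 CPM in knockout and 204.1 ± 68.9 CPM in wildtype (SD, n = 3 each). Spp1 and Ifitm5 were at 0.27 and 0.28 from osteocalcin, Sparc at 0.34, Cthrc1 at 0.38 and Ibsp at 0.54. The genes nearest to Spp1 were the protease gene Ctsh (0.15), the mitochondrially encoded COX2 (0.15), ATP6 (0.16) and ND1 (0.17), and Car3, a carbonic anhydrase (0.17), against a median of 0.51. Of the members, Sparc was at 0.24 from Spp1, Bglap at 0.25, Cthrc1 at 0.33, Bglap2 at 0.35, Ifitm5 at 0.39 and Ibsp at 0.41. Nearest to Sparc were Ctsk (0.04), which encodes cathepsin K, the signal recognition particle receptor subunit Srprb, the intraflagellar transport gene Ift20, the fibroblast activation gene Fap and the general transcription factor gene Gtf2h5 (0.07 each), against a median of 0.32. Cthrc1 was at 0.10 from Sparc, Ibsp at 0.22 and Ifitm5 at 0.27, while Bglap at 0.35 and Bglap2 at 0.37 lay farther than the median gene.

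Because a ratio of 2 genes inside a library does not depend on how libraries are scaled, all 15 pairs among summed osteocalcin, Ibsp, Spp1, Sparc, Ifitm5 and Cthrc1 were compared. In 6 pairs the groups did not overlap, and in each the exact two-sided permutation test gave p = 0.1, the smallest possible, and an adjusted p = 0.25 over the 15 pairs. The log2 ratio of osteocalcin to Spp1, both per kilobase, was -1.21, -1.11 and -0.86 in knockout 1, 2 and 3, against -0.69, -0.55 and -0.49 in wildtype 1, 2 and 3. Osteocalcin was thus lower relative to osteopontin in every knockout library, and the means differed by -0.48. Over all genes tested, 1.46% had a ratio to osteocalcin that separated the groups and 4.84% had such a ratio to Spp1.

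Ifitm5 took part in 4 of the 6 pairs. The log2 ratio of Sparc to Ifitm5 was 4.99, 5.08 and 4.90 in the knockout and 4.63, 4.38 and 4.42 in the wildtype libraries, a difference of 0.52. Spp1 to Ifitm5 differed by 0.68, with 4.67, 4.45 and 4.79 in knockout and 4.03, 3.62 and 4.22 in wildtype libraries, and Ibsp to Ifitm5 by 0.65. Relative to Cthrc1, Ifitm5 was lower in every knockout library, with a difference of -0.37. Of all genes tested, 15.2% had a ratio to Ifitm5 that did not overlap between the groups, 9.52% had such a ratio to Sparc and 18.8% to Ibsp. The sixth pair was Ibsp to Cthrc1, at 0.28, for which 11.4% of all genes separated the groups in their ratio to Cthrc1. Without wildtype 3, 10 of the 15 pairs did not overlap. Fewer libraries separate more readily, and the share over all genes was not computed with a library left out, so this is not a stronger result.

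**Figure D4:**
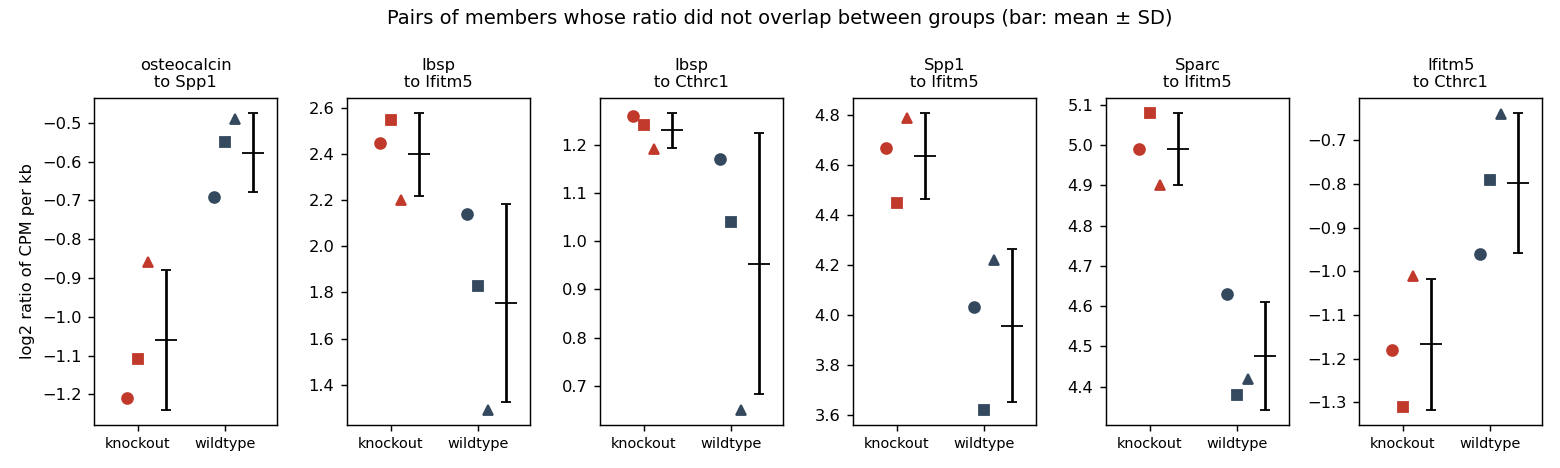
Log2 ratio of CPM per kilobase for the 6 pairs whose groups did not overlap, by library (circle, square and triangle for library 1, 2 and 3), with the mean ± SD of 3 libraries. The vertical axes differ between panels. Osteocalcin to Spp1 lies between -1.21 and -0.86 in knockout and between -0.69 and -0.49 in wildtype libraries.

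The regions before the transcription starts of Bglap and Spp1 are shown as examples. Both genes were highest in library 3 of each group, but so were Bglap2, Sparc, Ifitm5 and Cthrc1. A link between sequence and that pattern was not tested. Each region runs from 250 bases before to 50 after the start, 5′ to 3′ on the gene's strand, from RefSeq on GRCm38.p6. Capitals mark matches to AACCNC, TTACATCA (the osteocalcin element OSE1) or TAATTA (a homeodomain core), searched on both strands. AACCNC was used here for Runx factors, and it neither covers all their sites nor is met by their sites alone.
Bglap, chr3:88384417-88384716, minus strand: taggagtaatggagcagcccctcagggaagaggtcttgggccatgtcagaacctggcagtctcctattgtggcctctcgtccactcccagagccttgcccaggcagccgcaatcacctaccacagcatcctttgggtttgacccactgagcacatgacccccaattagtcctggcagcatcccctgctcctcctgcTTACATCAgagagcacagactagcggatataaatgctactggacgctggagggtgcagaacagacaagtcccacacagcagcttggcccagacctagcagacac
Spp1, chr5:104434861-104435160, plus strand: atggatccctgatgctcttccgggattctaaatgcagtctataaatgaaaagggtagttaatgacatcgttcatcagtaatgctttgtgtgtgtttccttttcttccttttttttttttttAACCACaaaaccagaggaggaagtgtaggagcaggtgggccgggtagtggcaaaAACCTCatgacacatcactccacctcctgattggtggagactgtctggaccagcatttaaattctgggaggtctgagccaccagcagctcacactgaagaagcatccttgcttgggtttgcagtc
The Bglap window held TTACATCA, found in 1.1% of the 32851 promoter windows of the table, from base -54 to -47. The first Spp1 window held AACCNC at -129 and at -75, a motif that 39.9% of all windows contain. No match to TAATTA (5.29% of windows) was in either, though a second Spp1 window, for another start, held 1 at -122. The Bglap3 windows, for different starts, held AACCNC at -46 and -38 in the first, AACCNC at 10 and TAATTA at -96 in the second and no match in the third. The Ibsp, Ifitm5 and Sparc windows held none of the 3 motifs, and Bglap2 and Cthrc1 had no entry. A match is a description of letters only, and lack of a match does not mean that a factor has no site. In the Bglap window a stretch left in lower case differs from AACCNC at its first base only.

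Genes next to the members on the chromosome had fold changes on both sides of 0. Within 100 kb of the osteocalcin cluster lie 10 other genes, of which 9 were tested, 0 called, 3 positive and 6 negative (median -0.03). Sema4a, a semaphorin gene, measured 6.06, 6.67 and 3.95 CPM in the knockout and 3.19, 2.92 and 2.93 CPM in the wildtype libraries (0.88 ± 0.29, adjusted p = 0.288 in edgeR). The kinetochore gene Pmf1 measured 9.52 to 10.6 CPM in knockout and 11.8 to 15.2 CPM in wildtype libraries (-0.39 ± 0.19), and Smg5, a nonsense-mediated decay factor, was at -0.21 ± 0.15. Both were lower in every knockout library, and Cct3, a chaperonin subunit, was at -0.23 ± 0.16 with overlap. Paqr6, 75 bases from Bglap3, was counted 22, 11 and 12 times for knockout 1, 2 and 3, against 12, 56 and 17 times for wildtype 1, 2 and 3. It was high in wildtype 2, and not in wildtype 1 where Bglap3 was high. Mean CPM in knockout and in wildtype libraries was 604.9 and 528.3 for Lmna, 48.2 and 48.5 for Glmp, 15.1 and 14.8 for Slc25a44 and 1.26 and 1.28 for Tmem79, all with overlap. Tsacc was under the filter.

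Ibsp and Spp1 lie in a cluster of related matrix genes on chromosome 5. Of 7 other genes within 200 kb, 6 were tested, 0 called, 5 positive and 1 negative (median 0.45). Dmp1, which encodes a mineral-binding protein of osteocytes, measured 287.6, 258.0 and 314.8 CPM in the knockout and 223.3, 195.3 and 224.5 CPM in the wildtype libraries. It was higher in every knockout library (0.42 ± 0.16, adjusted p = 0.312 in edgeR), while the groups overlapped for Ibsp and Spp1. Mepe, another acidic phosphoprotein, was rare, at 1.54 ± 0.684 CPM in knockout and 2.00 ± 0.511 CPM in wildtype (-0.38 ± 0.49), and Dspp had 0 to 7 counts in any library and was under the filter. The ion channel gene Pkd2 (0.30 ± 0.24) and Thoc2l (0.52 ± 0.29) were positive with overlap, Zfp33b stayed under 1 CPM on average, and Sparcl1 is given below with its family.

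Lists of genes that work with the members were read in the same fit, in which 0 of 13505 genes were called. DESeq2 called 8 list genes, with Acp5, F13a1, Fbln2, Mgp, Mmp9, Smoc2 and Tgm2 higher and Sp7 lower in the knockout. Of 24 tested genes for other non-collagen matrix proteins 0 were called, 19 were positive and 5 negative, and their median of 0.28 lay on the other side of 0 from the members' -0.29. With library size alone this list's median was 0.06, where that of all genes was -0.21. The calcification inhibitor Mgp, like osteocalcin a vitamin K-dependent protein, measured 257.1, 193.7 and 158.9 CPM in the knockout and 129.1, 59.4 and 82.6 CPM in the wildtype libraries (1.17 ± 0.29, adjusted p = 0.273 in edgeR). Fbln2, a fibulin, was at 0.94 ± 0.28, and Vtn, vitronectin, at 1.72 ± 0.56 with only 2.57 ± 1.23 CPM in knockout and 0.765 ± 0.386 CPM in wildtype libraries. Among 7 relatives of Sparc 0 were called and 6 were positive, with a median of 1.03 that was 0.44 without knockout 2 and 0.54 without wildtype 2. Smoc2 measured 122.3, 97.1 and 67.9 CPM in knockout and 56.1, 34.9 and 43.5 CPM in wildtype libraries (1.09 ± 0.25, adjusted p = 0.273), and Sparcl1 45.2 ± 14.1 CPM in knockout and 21.2 ± 10.6 CPM in wildtype (1.09 ± 0.34). Spock1 ran the other way, at -0.78 ± 0.33. Mgp and several Sparc relatives are also made by cartilage and vessel cells, and the summed CPM of 7 chondrocyte markers was 6429.1 to 19286.0 in the knockout and 820.3 to 5516.6 in the wildtype libraries. The summed CPM of 7 endothelial markers was 113.6 to 194.1 in knockout and 34.7 to 111.5 in wildtype libraries. The part of these cells in the result was not tested.

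Of 8 tested genes of the Ifitm family and its partners 0 were called, 2 were positive and 6 negative (median -0.10). Fkbp11, a chaperone of the endoplasmic reticulum reported to bind Ifitm5, measured 61.9, 56.6 and 89.6 CPM in knockout 1, 2 and 3 and 86.0, 131.4 and 143.1 CPM in wildtype 1, 2 and 3. As for Ifitm5, only knockout 3 and wildtype 1 crossed (-0.79 ± 0.24, unadjusted p = 0.00849, adjusted p = 0.277 in edgeR). Ifitm10 was at 1.88 ± 0.85 on 45, 33 and 16 counts in knockout and 26, 0 and 8 in wildtype libraries, and Ifitm3 was at -0.28 ± 0.18.

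The vitamin K and gamma-carboxylation list, which serves osteocalcin, was balanced, with 0 of 10 tested genes called, 5 positive and 5 negative (median -0.01). Vkorc1, the vitamin K epoxide reductase, measured 124.9, 105.1 and 137.8 CPM in the knockout and 126.6, 165.4 and 190.0 CPM in the wildtype libraries, with overlap (-0.39 ± 0.19, adjusted p = 0.369 in edgeR). The convertase Furin was at 0.24 ± 0.16 and the carboxylase Ggcx at 0.16 ± 0.18. Ggcx was named for its role after the values were seen.

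Among receptors for RGD proteins and osteopontin 0 of 10 tested genes were called, 7 were positive and 3 negative (median 0.12). The integrin subunit Itga4, common on blood cells, measured 6.12, 6.88 and 4.03 CPM in knockout and 3.41, 2.16 and 1.13 CPM in wildtype libraries (1.33 ± 0.42). Itga5 averaged 84.0 ± 12.4 CPM in knockout and 63.2 ± 10.9 CPM in wildtype (0.41 ± 0.18), and the osteopontin receptor Cd44 126.0 ± 12.1 CPM in knockout and 104.0 ± 3.89 CPM in wildtype (0.28 ± 0.15). Enzymes that act on the members had 9 positive and 4 negative of 13 tested, with 0 called (median 0.20). Mmp9, a gelatinase that cleaves osteopontin and is abundant in osteoclasts, measured 204.2, 176.7 and 172.4 CPM in the knockout and 120.3, 72.1 and 83.3 CPM in the wildtype libraries (1.00 ± 0.21, adjusted p = 0.273 in edgeR). Acp5, an osteoclast phosphatase that acts on osteopontin, averaged 38.0 ± 3.65 CPM in knockout and 23.2 ± 1.45 CPM in wildtype (0.71 ± 0.15), and the transglutaminase Tgm2 was at 0.79 ± 0.19. Of 7 osteoclast markers 5 were tested and 4 were positive (median 1.52). Their summed CPM overlapped, at 351.9 to 469.3 in the knockout and 318.9 to 516.1 in the wildtype group, but most of it was Ctsk (332.6, 306.9 and 425.2 CPM in knockout, 292.1, 318.1 and 490.1 CPM in wildtype). The other 6 markers, Acp5 among them, summed to 51.0, 45.0 and 44.0 CPM in the knockout and 26.8, 23.7 and 26.0 CPM in the wildtype libraries, without overlap, a split made after the values were seen. Calcr, Dcstamp, Ocstamp and Oscar of that list were at 0 in at least 1 library. The 7 macrophage markers summed to 107.2 to 250.6 CPM in knockout and 64.0 to 92.4 CPM in wildtype, and the part of these cells in the values of Mmp9, Acp5 and Itga4 was not tested.

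Regulators of osteocalcin and bone sialoprotein had 9 positive and 10 negative of 19 tested, with 0 called (median -0.11). Osterix, Sp7, measured 127.0, 131.0 and 181.6 CPM in the knockout and 208.1, 222.1 and 244.3 CPM in the wildtype libraries, without overlap (-0.62 ± 0.19, adjusted p = 0.277 in edgeR). The homeobox gene Dlx6 was likewise lower in every knockout library (4.26, 5.35 and 9.05 CPM in knockout, 10.9, 12.8 and 14.6 CPM in wildtype), and Twist1, which restrains Runx2, was higher in every one (0.44 ± 0.18). Of the Wnt genes grouped with Cthrc1, 7 of 13 tested were positive and 6 negative, with 0 called (median 0.11). Wnt11 (1.33 ± 0.39), Fzd5 (0.32 ± 0.17) and Fzd3 (0.57 ± 0.32) had the smallest p.

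**Figure D5:**
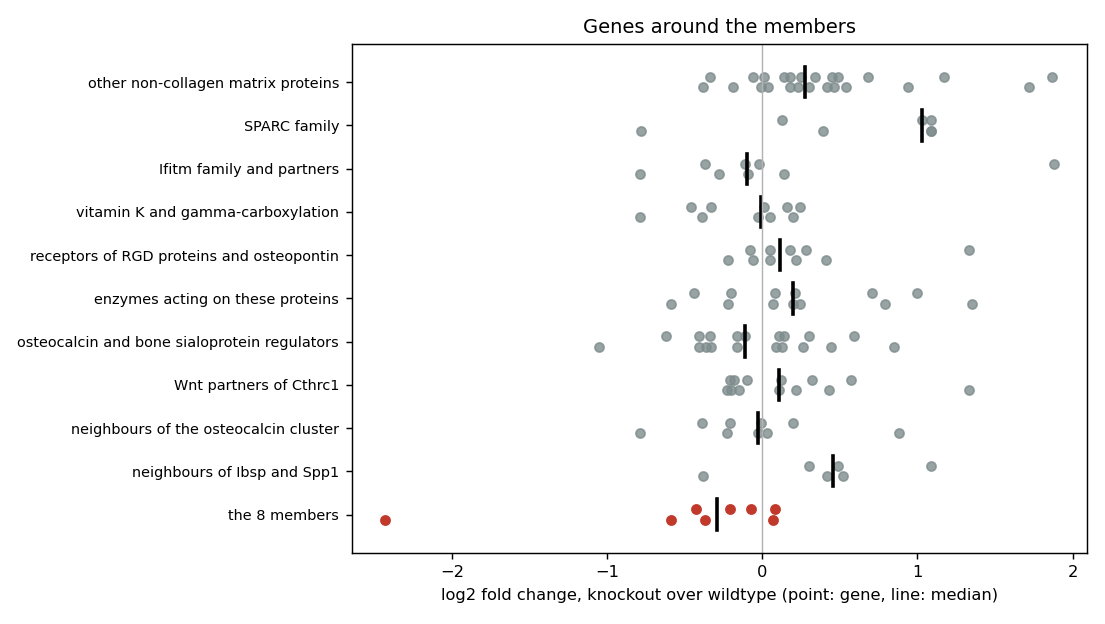
Log2 fold change of knockout over wildtype for every tested gene of each list (grey points) and for the 8 members (red points), with the median as a black line. The members' median is -0.29 and that of other non-collagen matrix proteins 0.28, and the far-left red point is Bglap3 at -2.43.

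Markers of cells other than osteoblasts were read beside the members. Their part in the members' values was not tested. As background, osteonectin is also made by endothelial cells and fibroblasts, and osteopontin and bone sialoprotein by hypertrophic chondrocytes and osteoclasts. The 5 fibroblast and periosteum markers summed to 251.6 to 299.9 CPM in the knockout and 230.1 to 291.9 CPM in the wildtype libraries, and the 3 hypertrophic chondrocyte markers to 293.9 to 894.7 CPM in knockout and 212.9 to 434.2 CPM in wildtype, both with overlap. In such bulk libraries fewer cells of a type and less RNA per cell cannot be told apart. Neutrophil markers, at 53.2 to 180.7 CPM in knockout and 19.5 to 51.6 CPM in wildtype libraries, and neural markers were also higher in every knockout library. Erythroid, lymphocyte, adipocyte, osteocyte and muscle markers overlapped between the groups.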

How the data were processed

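Counts of reads per gene were deposited by the authors as whole numbers without normalization, for 27179 Entrez gene IDs in 6 libraries. The authors used CASAVA 1.7, Subread and featureCounts with mm10, per the submitters' processing notes. Strandedness and multi-mapping settings were not given in the sources used. Every column was matched to a sample by name. RefSeq (GRCm38.p6) named 25275 IDs (93.0%), and the other 1904 stayed in totals and tests.

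The counts were filtered with filterByExpr, scaled by TMM and tested with edgeR 4.0.16 (quasi-likelihood, two-sided, no covariates, R 4.3.3). The 13505 genes kept were adjusted together by Benjamini-Hochberg. CPM uses TMM-scaled library sizes, and levels between genes are per kilobase of the GENCODE M21 transcript numbered 201. Fold changes are log2 of knockout over wildtype ± SE. The biological coefficient of variation was 24.2%. The edgeR procedure was tested on simulated data. Alternatives comprised DESeq2 1.42.0, limma 3.58.1 voom, other scalings and filters, a replicate block and leaving out each library.

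Members and lists were chosen with earlier results of these data known. Named were all members, the 3 list genes of smallest p, all tested neighbours, Cdc73 and the 5 most similar profiles for 3 members, except for items not reported here.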

Additional observations from a re-analysis of the deposited data

How the results depend on the processing

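Of 120 refits of single members, 108 kept the direction and the side of the threshold, 11 turned direction and 1, Bglap3 in DESeq2, crossed the threshold. Most alternatives called 0 genes in all, so staying on the same side says little about a member. Leaving out 1 library at a time gave log2 fold changes of -0.84 to 0.21 for Bglap, -0.96 to -0.05 for Bglap2, -2.92 to -1.27 for Bglap3, -0.04 to 0.15 for Ibsp, -0.27 to 0.51 for Spp1, -0.26 to 0.15 for Sparc, -0.83 to -0.34 for Ifitm5, -0.36 to -0.06 for Cthrc1 and -0.88 to 0.12 for the osteocalcin sum. Directions turned for Ibsp and Spp1 with library size alone (-0.14 and -0.17) and with library size after leaving out Col1a1, the most abundant feature over all libraries (-0.20 and -0.24), where the median of all genes was -0.21 and -0.28, and Furin was then at -0.03. The causes of other turns were not tested. The members' share of counts differed by -0.615 to 0.00705 percentage points with 1 library left out. Between 6 and 10 of the 15 ratios then did not overlap, where fewer libraries separate more readily and no share over all genes was computed. Paqr6 ran from -1.26 to 0.42 and Col1a1 from -0.33 to 0.01. The count of called genes was 0 in edgeR, 24 without a filter, 248 in DESeq2 and 0 to 409 with 1 library left out, 409 being the value without wildtype 1. Of the members DESeq2 called 1. With library size alone the medians of the receptor, enzyme and Wnt lists were -0.08, -0.02 and -0.09. Of the lists, 0 to 6 genes were called with 1 library left out, the 6 without wildtype 1 all being higher, and DESeq2 and the replicate block each called 8 (7 higher and 1 lower). The labels do not say what the replicate number marks, so the numbers were not taken as pairs. Same-numbered libraries deviated together at r of 0.07, -0.06 and 0.25 over genes, and different-numbered ones at -0.36 to 0.39. With so few libraries these values cannot settle a pairing, and several members were highest in library 3 of both groups. A fit with the replicate number as a block called 236 genes and 0 members, with an osteocalcin sum of -0.38. Depth limits Bglap3, at 7 to 209 counts.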
